A study of Mus musculus with 1037 samples.

Results

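The cytoplasmic ribosomal protein genes of the mouse were followed through 3 stages of the hair cycle. They were taken as the protein-coding genes of the counts table whose symbols have the form Rpl or Rps with a number, with or without a letter, together with Rplp0, Rplp1, Rplp2 and Rpsa. Pseudogenes and the S6 kinases, which share the start of the symbol, were left out. The rule gave 84 genes, of the 55335 gene identifiers in the table and the 21591 nuclear protein-coding genes among them. Of the 84, 51 encode proteins of the large subunit and 33 of the small subunit. They lie on 19 chromosomes, with 4 on the X chromosome. In the chosen cells, 81 members had 100 counts or more over all groups. The other members, Rpl3l, Rpl10l and Rpl39l, are treated separately.

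The data are Smart-seq2 libraries of hair follicle epithelial cells from the skin of wild-type mice, with 1 sorted cell to a well. In Smart-seq2 a poly(A) primer starts the copying and the whole transcript is fragmented and read, so that a long transcript yields more counts than a short one. Cells of several animals were pooled for each stage before sorting, no animal is named, and each sort or plate is therefore 1 sample. No test between groups was possible, and all intervals below cover counting error only, since without molecular identifiers several reads can stem from 1 molecule.

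From late anagen (AnaVI, postnatal day 15), when the follicle is fully grown, there were cells of the lower outer root sheath (LOS) and of 2 sorts, MOS and UOS, that share the label upper-middle outer root sheath. From late catagen, when the lower follicle regresses, there were CatVI plates (day 17) and CatVII sorts (day 18), all labelled upper outer root sheath. The CatVI plates are pl1 and pl2, labelled Phago alive, pl3 and pl4, labelled NonPhago alive, pl5, labelled Phago apop, and pl6, labelled NonPhago apop. The CatVII sorts are OSalive and OSapop. By the sort scheme of the study, which also gave the days, cells positive for Sca1 or for lineage markers of other cell types were left out, cells positive for Cd34 and integrin alpha 6 were kept, and alive cells were negative for annexin V. The labels do not say how phagocytic or apoptotic cells were recognised. Cells with at least 2000 detected genes were used, 463 of the 1036 cells with a group. They were 39 of 93 cells in LOS, 38 of 72 in MOS, 19 of 88 on pl1, 9 of 73 on pl2, 15 of 85 on pl5 and 14 of 70 on pl6. In UOS 83.6% of the cells passed (22 left out), in OSalive 80.1% (31 left out) and in OSapop 65.2% (92 cells). None of the 67 cells of pl3 and the 57 of pl4 passed. Stage, sort and plate cannot be told apart in this design.

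A ribosome is built from ribosomal RNA and one copy of nearly every ribosomal protein, so that the genes for these proteins are needed in matched amounts. Their messenger RNAs are short, abundant and stable, and most begin with a C followed by a run of pyrimidines, the 5′ terminal oligopyrimidine (TOP) tract, through which their translation is tied to mTOR signalling. Growing cells spend much of their RNA output on them. The outer root sheath is the outer epithelial layer of the follicle, which grows with it in anagen and is lost in large part in catagen.

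The group sums held between 321243 counts of nuclear protein-coding genes (pl6) and 46938879 (OSalive), and the median cell between 19453 and 355644. A row of the table that has no entry in the annotation took 54.5% to 67.5% of the gene counts of the median cell, so levels are given as counts per 1000000 nuclear protein-coding counts (CPM). Mitochondrial counts made up 1.81% to 4.34% of the median cell, and spike-in RNA 0.791% to 2.79%. The 9 outer root sheath and bulge markers, such as Krt5, Krt14 and Sox9, were detected in every group, with a summed level from 6440 CPM on pl2 and 6457 in LOS to 31071 on pl5. Cd34, a surface marker of bulge stem cells, was at 122.8 CPM in LOS, 111.4 in MOS, 388.8 in UOS, 680.0 in OSalive and 560.3 in OSapop, and at 7.01 to 54.96 on the CatVI plates. Lgr5, another stem cell marker of the follicle, was at 187.6 CPM in LOS, 399.1 in MOS and 190.6 in UOS, and was higher on the CatVI plates (678.6 to 1871) and in OSalive (1563) and OSapop (1574). Fibroblast markers summed to 5782 CPM in LOS and melanocyte markers to 756 in LOS and 882 on pl2, while the 4 immune markers summed to 17.5 CPM or less everywhere.

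The start sites of 6 members show the sequence feature these genes are known for. Each line gives 10 bases before and 20 bases from the annotated transcription start, 5′ to 3′ on the strand of the gene, with the pyrimidine tract that begins at the start in capitals.
Rplp2: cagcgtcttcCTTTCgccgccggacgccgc
Rps6: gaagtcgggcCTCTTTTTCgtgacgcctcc
Rpl15: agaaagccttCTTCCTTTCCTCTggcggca
Rps18: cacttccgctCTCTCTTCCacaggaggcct
Rpl38: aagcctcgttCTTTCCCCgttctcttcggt
Rps27: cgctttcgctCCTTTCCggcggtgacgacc
They were read from the RefSeq promoter table on GRCm38.p6, at chr7:141447641-141447670 (plus strand), chr4:86857348-86857377 (minus), chr14:18270967-18270996 (minus), chr17:33955646-33955675 (minus), chr11:114668570-114668599 (plus) and chr3:90213629-90213658 (minus), in the order of the lines. They are 6 of the members that carry the tract at the annotated start, 3 from each subunit, and are printed so that the feature can be seen.

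The promoter table held 63 of the 84 members. A C at the annotated start followed by at least 4 more C or T, read on the strand of the gene, was present in 13 of them (20.6%) and in 813 of 27025 genes (3.01%). With the start allowed to move by up to 5 bases, the tract was found in 29 members (46.03%) and in 21.2% of all genes. In the 300 bases around the start, searched on both strands, CTTTCC, which overlaps such tracts, occurred in 52.4% of the members and 29.3% of all genes, and CCGGAAG in 41.3% and 9.93%. AAGATGG was present in 15.9% and 7.28%, GGGCGG in 61.9% and 38.2%, and TATAAA in 11.1% and 15.7%. The median log2 ratio of OSalive to UOS was −3.03 for the 13 members with a tract at the annotated start. It was −2.87 for the 47 others with a promoter and enough counts. With the start allowed to move, it was −3.02 for 29 members with the tract and −2.80 for 31 without. Because more members had a tract once the start could move, the annotated base does not separate TOP transcripts from others. No conclusion on the tract is drawn from these values.

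Together the members made up a smaller share of the messenger RNA counts in every catagen group than in any anagen group. Their share of nuclear protein-coding counts was 5.23% (95% exact binomial interval 5.20 to 5.26) in LOS, 4.34% (4.31 to 4.37) in MOS and 5.13% (5.12 to 5.14) in UOS. On the CatVI plates it was 1.18% (1.16 to 1.20) on pl1, 2.05% (2.0 to 2.09) on pl2, 1.26% (1.24 to 1.28) on pl5 and 1.74% (1.70 to 1.79) on pl6. In CatVII it was 0.944% (0.942 to 0.947) in OSalive and 0.845% (0.840 to 0.8498) in OSapop. In these sums the 3 anagen groups lay above all 6 catagen groups, and CatVI lay above CatVII. A share says only that the members took less of the whole, so that fewer ribosomal protein transcripts and more of other transcripts cannot be told apart from it.

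The medians of the single cells kept the order of the stages, with wide spread, but not the order of the CatVI plates. The lowest, median and highest cell had a share of 1.73%, 4.64% and 11.3% in UOS, 1.26%, 5.21% and 10.9% in LOS, and 1.5%, 4.42% and 7.29% in MOS. In OSalive they were 0.373%, 0.891% and 2.34%, and in OSapop 0.347%, 0.823% and 1.62%. All 92 cells of OSapop and all but 3 cells of OSalive lay below the lowest UOS cell, compared with 1 cell each of LOS and MOS. The CatVI plates overlapped the anagen range: the cells ran from 0.223% to 5.30% on pl1 (median 1.1%), from 0.380% to 8.96% on pl2 (1.01%), from 0.265% to 2.46% on pl5 (0.989%) and from 0.459% to 4.05% on pl6 (1.86%). Of their cells, 16 of 19, 7 of 9, 13 of 15 and 6 of 14 lay below the lowest UOS cell. On pl2 a single cell carried much of the sum, and without it the share of the plate was 1.34%.

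**Figure D1:**
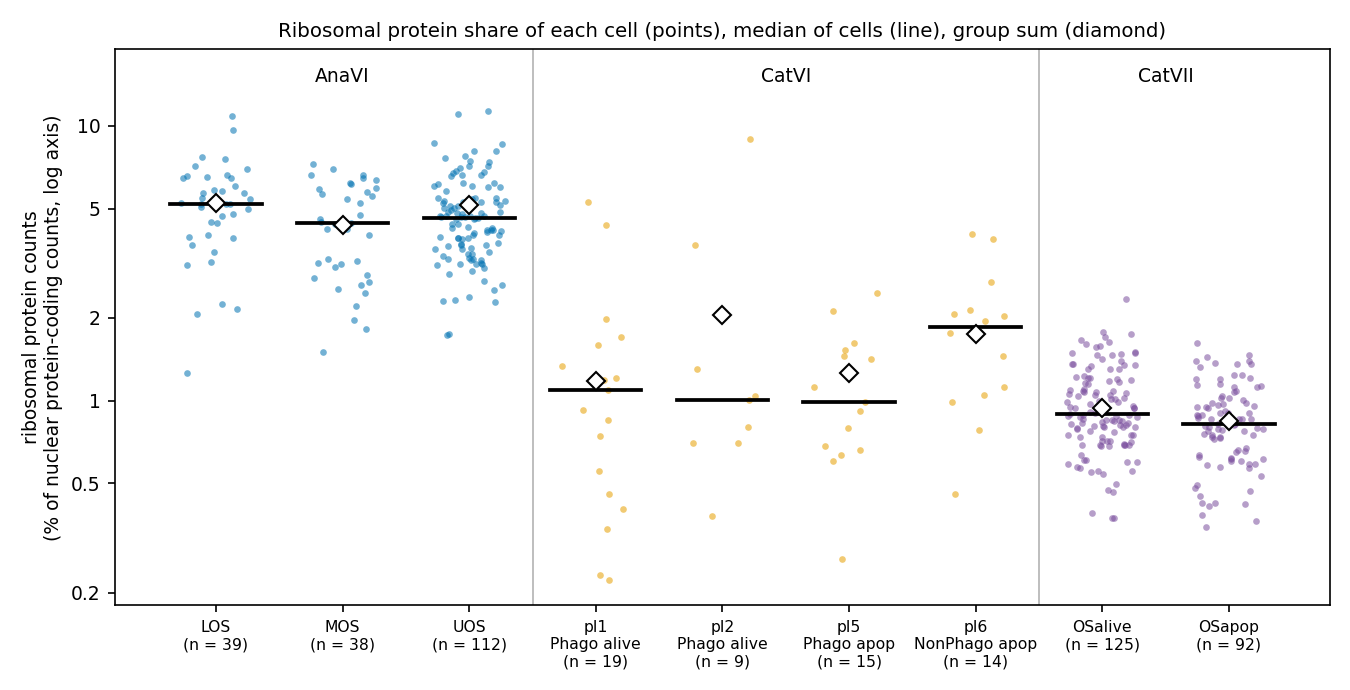
Share of nuclear protein-coding counts from ribosomal protein genes (%, log axis) in each passing cell of 9 groups; points are cells, black lines the median of cells, diamonds the share in the summed counts of the group. Cells of the 3 AnaVI groups centre on 4.42% to 5.21%, those of OSalive and OSapop on 0.891% and 0.823%, and the CatVI plates hold a few cells as high as anagen cells.

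Each member was compared between groups as the log2 ratio of CPM, where both groups together held 100 counts or more, and a ratio of 1 or more in size (a fold of 2) was called. Within AnaVI the members were nearly level. Over 81 members the median log2 ratio of LOS to UOS was −0.02, with quartiles of −0.12 and 0.09, and none was called lower or higher, against 13.2% and 14.7% of all genes. The highest was Rpsa, a protein of the small subunit that is also known as a laminin receptor, at 0.46 (95% interval 0.41 to 0.50). Between MOS and UOS the median was −0.26 over 80 members, and 1 was called lower against 20.1% of all genes: Rpl7l1, a relative of Rpl7 with a role in ribosome assembly, at −1.07 (−1.44 to −0.72). The median of all genes in that comparison was −0.20.

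In CatVII nearly every member was far below its UOS level. The median log2 ratio was −2.92 for OSalive, with quartiles of −3.34 and −2.27, and −3.06 for OSapop, with quartiles of −3.45 and −2.39. In OSalive 78 of 81 members were called lower, against 19.1% of all genes, and in OSapop 79 of 80, against 20.4%. None was called higher in either, against 13.8% and 11.2%. The members of the large subunit (median −2.89 in OSalive, 48 genes) and of the small subunit (−2.97, 33 genes) differed from UOS by like amounts. Apart from Rps4l, every member in these counts had at least 1030 counts in UOS alone, so that the filter on counts did not choose them by their catagen level.

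In the summed counts, the CatVI plates lay between anagen and CatVII. The median log2 ratio to UOS was −2.15 on pl1, where 80 of 81 members were called lower against 32.2% of all genes, and −1.22 on pl2, where 56 of 80 were against 33.8%. It was −1.91 on pl5 (79 of 81, against 35.7%) and −1.58 on pl6 (67 of 80, against 28.3%). Without the pl2 cell of highest share, the median for that plate was −1.95. With the 4 plates summed, the median was −1.82 and 80 of 81 members were called lower, against 23.1% of all genes.

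Low ratios were spread over the family. Of 80 members with enough counts throughout, 51 were called lower in all 6 catagen comparisons, against 2.90% of the 10253 genes that could be followed in the same way. These comparisons share the UOS cells as their reference. Compared by level alone, 72 of 81 members had their lowest anagen CPM above their highest catagen CPM, against 6.19% of all genes. The 9 members that overlapped were Rpl35a, Rpl38, Rpl7l1, Rps24, Rps27, Rps27l, Rps28, Rps29 and Rps4l. Of the 29 members that were not called lower in all 6, 24 missed the fold on pl2.

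**Figure D2:**
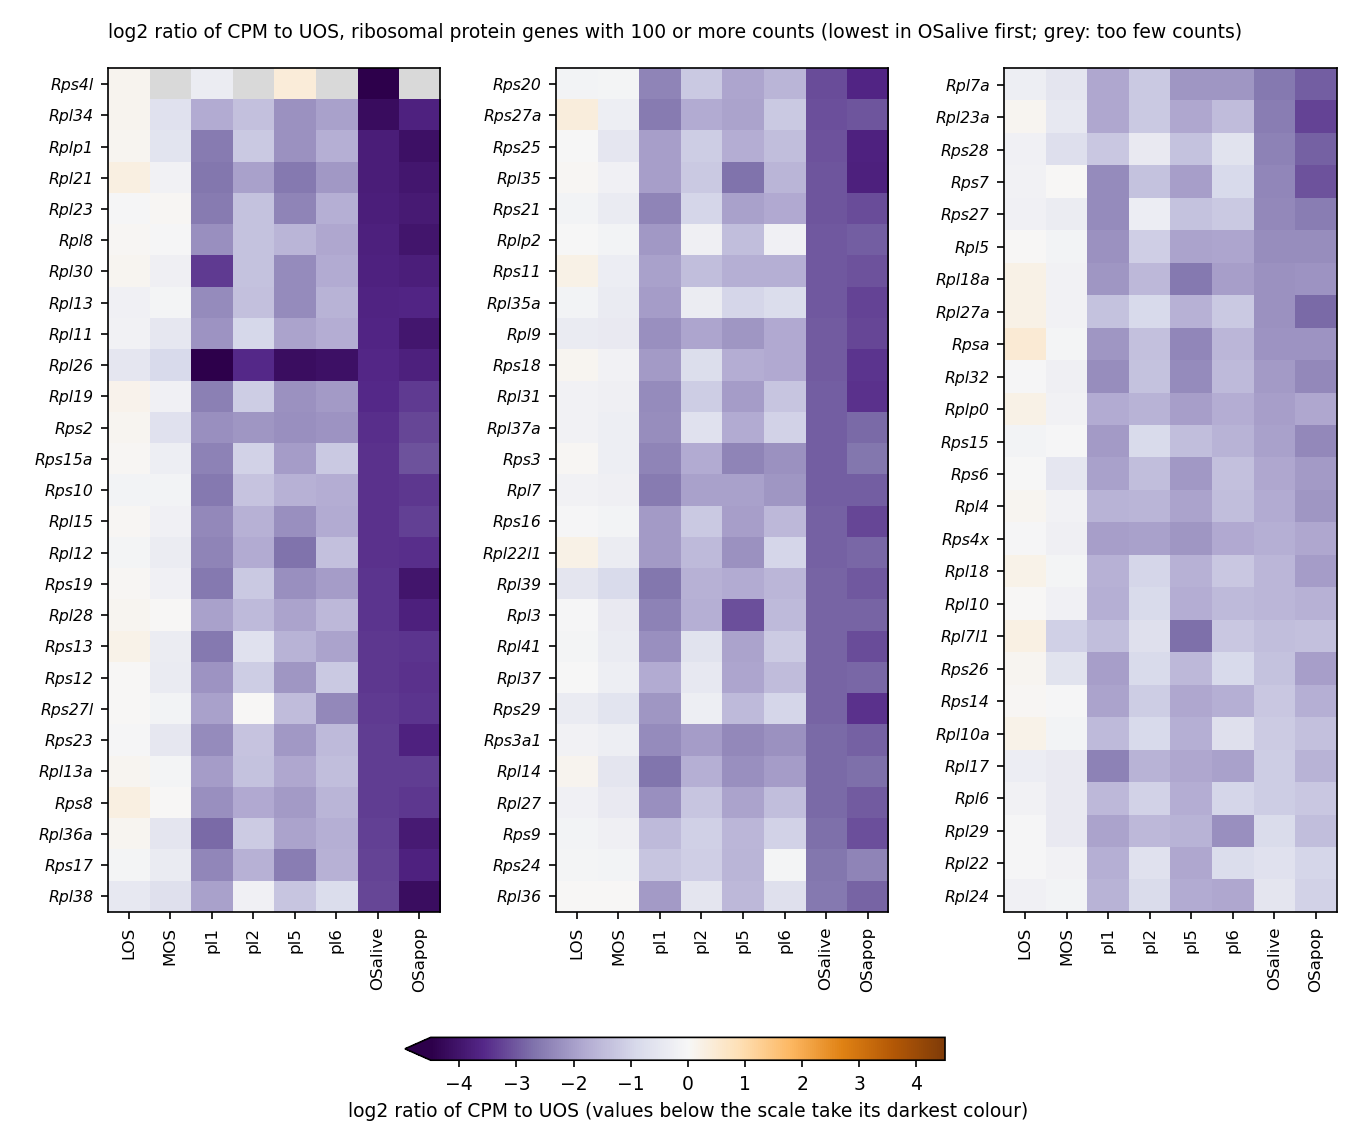
Log2 ratio of CPM to UOS for ribosomal protein genes (rows, lowest in OSalive first) in 8 groups (columns); purple is lower and orange higher than UOS, grey marks genes with under 100 counts over both groups. The LOS and MOS columns are pale throughout, the CatVI columns are intermediate with Rpl26 darkest, and the OSalive and OSapop columns are darkest except for the members at the end of the list, from Rpl10a to Rpl24.

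Ribosomal protein transcripts are short, so the members were set beside other protein-coding genes of similar transcript length, 497 to 3700 bases, the range from the 5th to the 95th percentile of the members. In the anagen comparisons members and peers had like medians, −0.02 and 0.08 for LOS and −0.26 and −0.25 for MOS. The median of the peers was −0.16 in OSalive and −0.22 in OSapop, which put the members 2.75 and 2.84 below them on the log2 scale. On the CatVI plates the peers were themselves low, at −0.57 on pl1, −0.55 on pl2, −0.70 on pl5 and −0.44 on pl6. The members lay below those medians by 1.58, 0.68, 1.21 and 1.15. Genes of similar coding length, from the 5th to the 95th percentile of the members, had medians of −0.47 in OSalive, −0.58 in OSapop, −0.94 on pl1, −0.68 on pl2, −0.93 on pl5 and −0.66 on pl6, and the members remained below each of these medians.

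**Figure D3:**
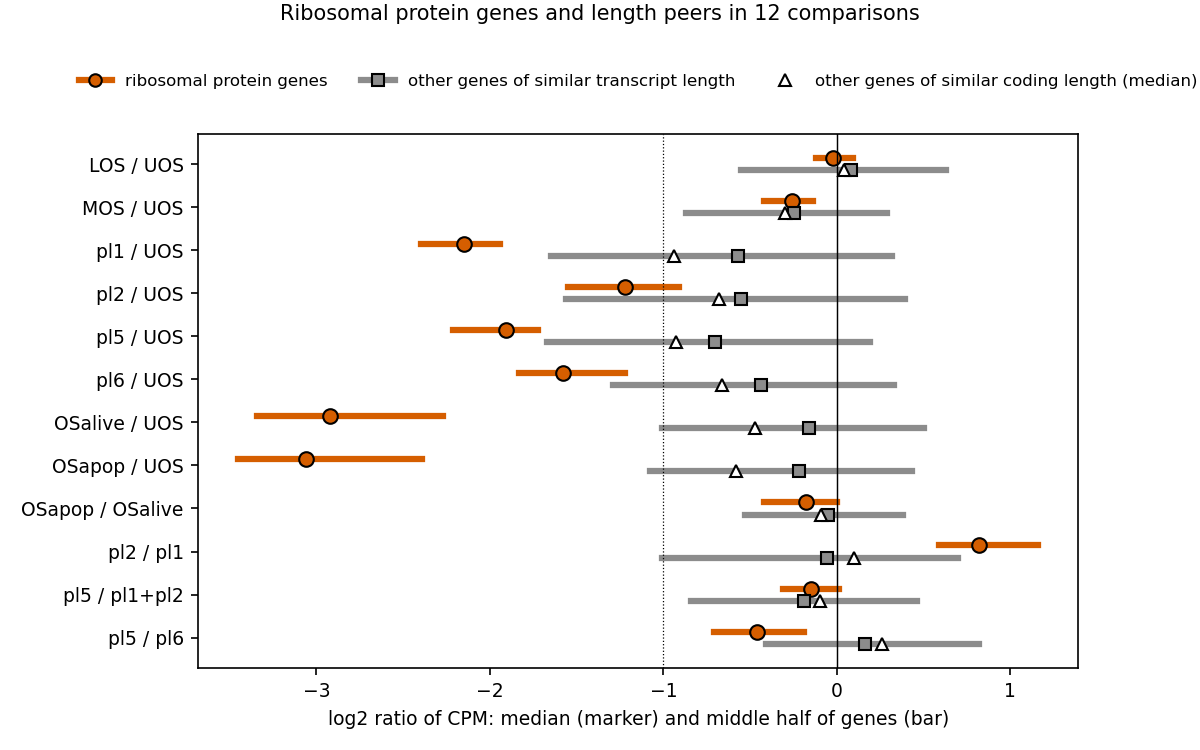
Median (circle) and quartiles (bar) of the log2 ratio of CPM of ribosomal protein genes in 12 comparisons, with the same for other genes of similar transcript length (squares) and the median for other genes of similar coding length (triangles); the dotted line marks a log2 ratio of −1. The circles separate from the squares in each comparison of a catagen group with UOS, from −1.22 against −0.55 on pl2 to −3.06 against −0.22 in OSapop.

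The distance from the other genes differed between length classes. On pl1 the other genes of up to 600 bases had a median log2 ratio of −2.0 (57 genes), close to the −2.14 of the 16 members of that length. Other genes of over 3000 bases were at 0.01 and the 9 members of that length at −2.22. Those 9 members have coding sequences of 891 bases or less, so this class may not reflect the length of their messenger RNAs. By coding length of up to 600 bases, other genes were at −1.16 on pl1 and 56 members at −2.14. In OSalive the other genes of up to 600 bases were at −1.24 (86 genes) and the members at −3.0, and in OSapop at −2.09 and −3.43. On pl5 the shortest class was at −1.01 for other genes and −1.79 for members, and on pl6 at −0.80 and −1.56. On pl2 the corresponding values were −0.54 and −0.80. The members themselves showed no trend with canonical length on pl1 (Spearman's rho −0.07 over 81 genes of the same libraries) or in OSalive (−0.07). On pl2 rho was −0.36 and on pl5 −0.27. With coding length, rho was 0.07 on pl1, 0.18 in OSalive, −0.51 on pl2 and −0.32 on pl5. When each member was set against other genes within 10% of its own canonical length, the difference was −0.72 on pl1, −2.08 in OSalive and −1.89 in OSapop. The part of length in the ratios on pl1 was not tested further.

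**Figure D4:**
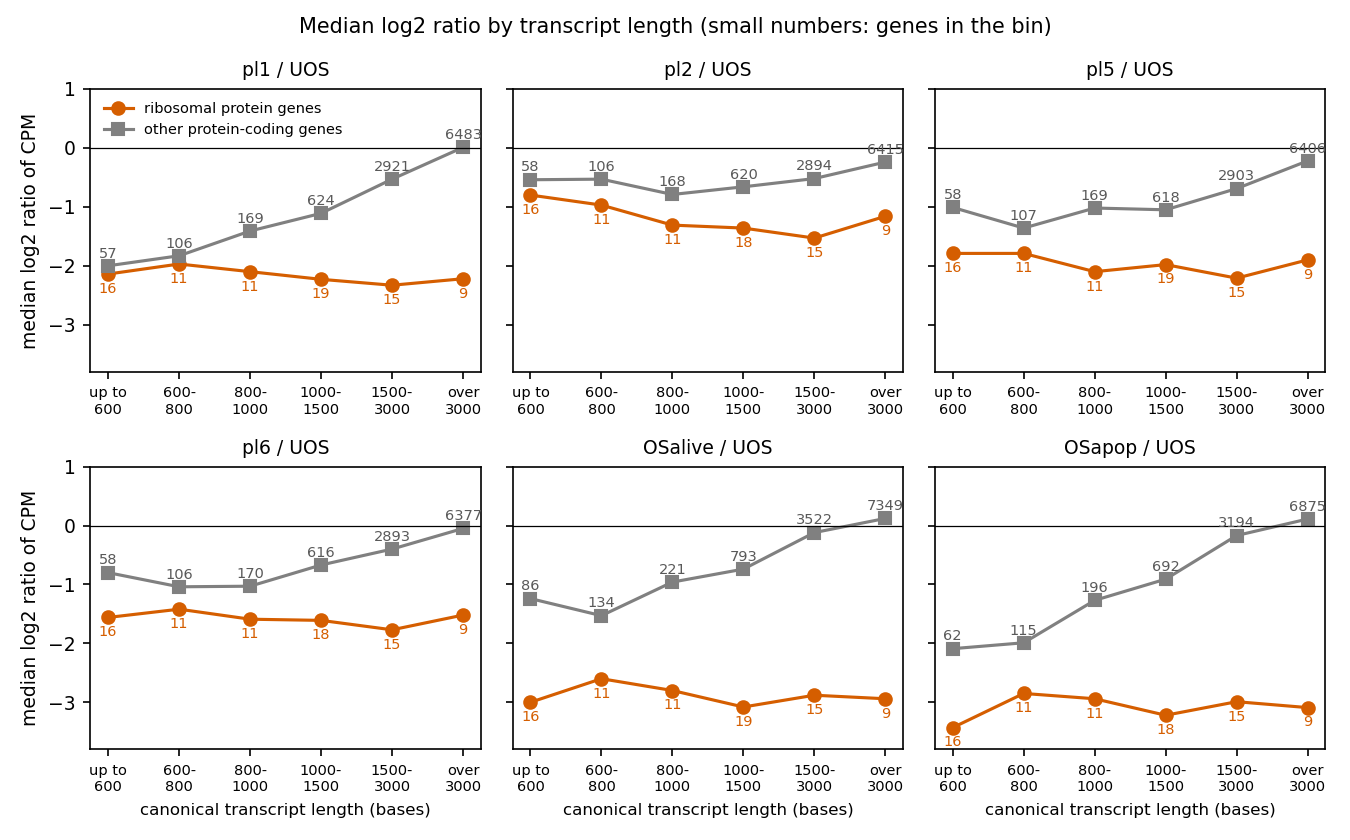
Median log2 ratio of CPM to UOS by canonical transcript length (bases, 6 classes) for ribosomal protein genes (circles) and other protein-coding genes (squares) in the 6 catagen groups; small numbers give the genes in each class. From the shortest to the longest class the other genes go from −2.0 to 0.01 on pl1 and from −1.24 to 0.12 in OSalive, while the line of the members stays near −2.15 and −2.92 in these 2 groups. The canonical transcripts of some members are far longer than their coding sequences.

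The acidic stalk of the large subunit, where elongation factors dock, is built from Rplp0, Rplp1 and Rplp2. Rplp0 (ENSMUSG00000067274.10, GRCm39 chr5:115694515-115701793, plus strand) had the highest level per kilobase of canonical transcript of all members in UOS. Per kilobase of coding sequence it was at rank 2. Rplp0 was at 3139 CPM in LOS, 2418 in MOS, 2684 in UOS, 785 on pl1, 859 on pl2, 682 on pl5, 800 on pl6, 683 in OSalive and 748 in OSapop, so the 6 catagen groups lay close together and far below anagen. Its log2 ratio of OSalive to UOS was −1.98 (−2.0 to −1.95). Rplp1 was at 791, 496 and 742 CPM in LOS, MOS and UOS, at 126.3, 322, 161.9 and 230.4 on pl1, pl2, pl5 and pl6, and at 52.96 and 43.2 in OSalive and OSapop, with a ratio of −3.81 (−3.87 to −3.74). Rplp2 was at 324, 299 and 329.8 CPM in anagen, at 77.2, 282.3, 123.1 and 286.4 on the plates, and at 40.8 and 43.1 in CatVII. Rplp2, with the shortest of the printed tracts, thus came close to its anagen range on pl2 and pl6, with ratios to UOS of −0.22 and −0.20, and was 8.09-fold lower in OSalive.

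Of the small subunit, Rpsa was at 2628, 1795 and 1916 CPM in LOS, MOS and UOS, at 438, 724, 370.3 and 641 on pl1, pl2, pl5 and pl6, and at 428 and 426 in OSalive and OSapop. Rps4x, an X-linked gene, went from 1664 CPM in UOS to 513 in OSalive (log2 ratio −1.70, −1.72 to −1.67). Rps14 had one of the smaller differences: it was at 981 CPM in UOS and 417 in OSalive, and went from rank 4 among the members per kilobase to rank 1. Rps12 was at 848 and 81.3 CPM, and at rank 2 and rank 17. Rps6, the substrate of the S6 kinases and one of the members whose start is printed, was at 734, 532 and 751 CPM in anagen, at 196.4, 279.8, 177.4 and 289.5 on the plates, and at 208.5 and 181.3 in CatVII. Its ratios were alike in CatVI (−1.82 for the summed plates) and in OSalive (−1.85).

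Several small-subunit members were near their anagen level on single plates. Rps24 was at 474, 469 and 509 CPM in LOS, MOS and UOS, at 206.9, 237.3 and 167.4 on pl1, pl2 and pl5, at 476 on pl6, and at 82.3 and 96.3 in OSalive and OSapop. Rps28 was at 147.2, 102.4 and 169.3 CPM in anagen, at 71.02, 127.4, 65.4 and 112.1 on the plates, and at 31.1 and 22.5 in CatVII. Rps27 was at 265.9 CPM in MOS, its lowest anagen group, at 335 in UOS, its highest, at 68.4, 272.3, 130.8 and 143.2 on the plates, and at 66.1 and 59.2 in CatVII. The overlap with anagen thus came from pl6 for Rps24, from pl2 and pl6 for Rps28 and from pl2 for Rps27, and all 3 were low in CatVII. Rps18 was at 330.6, 282.8 and 313.5 CPM in anagen, at 75.4, 187.4, 93.1 and 90.3 on the plates, and at 39.9 and 28.9 in CatVII, with no overlap.

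Among large-subunit proteins, the largest differences in OSalive were those of Rpl34, Rpl21 and Rpl23 beside Rplp1, whereas in OSapop the ratio of Rpl38, at −4.17, was the lowest of the members with 100 counts. Rpl34 was at 235.9, 136.3 and 215.8 CPM in LOS, MOS and UOS, at 62.3, 82.4, 46.6 and 56.03 on the plates, and at 11.8 and 16.6 in OSalive and OSapop. Its log2 ratio of OSalive to UOS was −4.19 (−4.32 to −4.06), a level 18.3-fold lower. Rpl21 was at −3.8 (−3.87 to −3.73) and Rpl23, one of the ribosomal proteins that can bind Mdm2, at −3.79 (−3.85 to −3.73). Rpl15, with the longest of the printed tracts, was at 863, 726 and 840.4 CPM in anagen, at 167.5, 262.3, 179.6 and 245.9 on the plates and at 76.4 and 87.02 in CatVII, without overlap. Rpl11 and Rpl5, which bind Mdm2 together with a small ribosomal RNA, were at −3.64 and −2.27. Rpl13, at 1188 CPM in UOS, 93.8 in OSalive and 95.7 in OSapop, had the widest range over groups on the log2 scale (3.66) of the 15 members with 100 counts in every group, followed by Rpl12 (3.49) and Rps12 (3.47).

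At the other end, Rpl24, Rpl22 and Rpl29 were the only 3 members with enough counts that were not called lower in OSalive. Rpl24, which forms a bridge between the subunits, was at 243.3, 257.4 and 279.9 CPM in LOS, MOS and UOS, at 89.4, 157.4, 80.9 and 77.8 on pl1, pl2, pl5 and pl6, and at 193.1 and 136.9 in OSalive and OSapop. Its log2 ratio was −0.54 (−0.59 to −0.48) in OSalive and −1.56 (−1.74 to −1.38) for the summed plates. Rpl22, an RNA-binding protein needed for T cell development, was at 250.6, 231.4 and 260.3 CPM in anagen, at 80.7, 164.9, 73.2 and 149.4 on the plates, and at 166.8 and 133.8 in CatVII. Rpl29, which is dispensable in mice, was at 72.7 CPM in UOS, 41.3 in OSalive and 26.7 in OSapop, and at 15.6 to 24.98 on the plates. Rpl24, Rpl22 and Rpl29 were thus lower on each CatVI plate than in OSalive, although Rpl22 only slightly on pl2. The median of the members was lower in OSalive than on any plate. Next came Rpl17 and Rpl6, both at −1.16 in OSalive, and Rpl17 too was lower on each plate than in OSalive. Rpl6 (1.74), Rpl10 (1.77), which joins the large subunit last, and Rpl10a (1.91) had the narrowest ranges over groups among the 15 members with 100 counts in every group.

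Rpl26 (ENSMUSG00000060938.14, GRCm39 chr11:68792344-68797822, plus strand) stood apart on the CatVI plates. It was at 414, 317 and 592 CPM in LOS, MOS and UOS, at 21.9, 49.96, 33.3 and 34.2 on pl1, pl2, pl5 and pl6, and at 48.7 and 43.7 in OSalive and OSapop. Its log2 ratio of the summed plates to UOS, −4.25 (−4.57 to −3.94), was the lowest of the members. A processed copy of the gene, Gm15772, with 99.5% identity in the coding sequence, was at 197.7, 196.2 and 38.4 CPM in LOS, MOS and UOS, at 122.7, 197.4, 90.9 and 143.2 on the plates and at 86.5 and 66.5 in CatVII. The copy thus held more counts than the gene in each catagen group and fewer in each anagen group. With the counts of its copies added, the ratio of Rpl26 was −2.0 for the summed plates and −2.22 in OSalive, so the value of the gene alone is uncertain. Low ratios of the summed plates were also those of Rpl21 (−2.43), Rpl30 (−2.35) and Rpl3 (−2.34), a core protein of the peptidyl transferase centre.

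Copies of this kind are a general limit for these genes. A sequence search found 930 other genes with at least 90% identity over at least 80% of a member's coding sequence, for 74 of the 84 members, and reads from a member can be assigned to them. Their counts amounted to 9.83% of those of the members in UOS, between 11.6% and 12.7% on the CatVI plates, 13.9% in OSalive and 14.1% in OSapop. For most of the members described here, adding them changed little: Rplp0 went from −1.98 to −1.96 in OSalive, Rpl24 from −0.54 to −0.52 and Rpl34 from −4.19 to −3.97. Rpsa went from −2.16 to −1.45, and its copy Rpsa-ps10 was at 42.6 CPM in UOS and 289.8 in OSalive. Rpl21 went from −3.8 to −3.32 and Rpl35a from −3.0 to −3.40. Copies of Rpl29 were at 246.7 CPM in UOS and 165.4 in OSalive, above the gene itself at 72.75 and 41.27. Copies of Rpl17 were at 70.13 and 73.48 CPM, beside 631.3 and 283.1 for the gene. The ratios of Rpl29 and Rpl17, which lies near the fold, thus depend on how reads were assigned.

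Of the 7 members named as relatives of another member, 3 were hardly measured. Rpl3l, known from muscle, and Rpl10l, known from the testis, had no count in any group. In UOS, where 14158792 counts were summed, the 95% upper limit for a count of 0 is 0.2605 CPM. Rpl39l was at 0.920 CPM in LOS and 0.0706 in UOS and had no count elsewhere. Rps4l was at 7.36, 2.42 and 6.71 CPM in LOS, MOS and UOS, at 5.26 on pl1 and 8.87 on pl5, and at 0.107 in OSalive, with no count on pl2, on pl6 or in OSapop. Its 95 counts in UOS and 5 in OSalive gave the lowest ratio of the members there, −5.98 (−7.63 to −4.70), and it passed the filter on counts only through UOS. With 3 counts put in place of 0 in OSapop, it was 29.7-fold lower there than in UOS. The 95% upper limit of its level in OSapop was 0.2777 CPM, and the lower limit in UOS was 5.428.

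The better measured relatives did not all follow their partners. Rpl22l1, a relative of Rpl22, was at 105.4 CPM in MOS, its lowest anagen group, at 132.9 in UOS, at 31.6, 47.5, 28.8 and 68.5 on pl1, pl2, pl5 and pl6, and at 17.8 and 18.7 in OSalive and OSapop. Its log2 ratio of OSalive to UOS was −2.90 (−3.02 to −2.78), compared with −0.64 (−0.70 to −0.59) for Rpl22, and their counting intervals lay far apart. For the summed plates the ratios were −1.83 (−2.14 to −1.55) and −1.40 (−1.59 to −1.23). Rps27l, a relative of Rps27 that is a target of p53, was at −3.34 (−3.52 to −3.17) in OSalive and Rps27 at −2.34 (−2.41 to −2.27). On pl2 Rps27l was level with UOS, at 79.9 and 78.6 CPM. The pl2 level rests on 32 counts, found in 33.3% of the 9 cells. Rpl7l1 was at −1.44 in OSalive and Rpl7 at −2.92.

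Within CatVII the members hardly differed between the sorts. The median log2 ratio of OSapop to OSalive was −0.18 (peers −0.05), and none of 80 members was called lower, against 11.6% of all genes. Rpl38, which is known for the patterning of the skeleton, was at 68.1, 56.9 and 92.3 CPM in LOS, MOS and UOS, at 23.7, 79.9, 37.7 and 52.9 on pl1, pl2, pl5 and pl6, and at 9.91 and 5.12 in OSalive and OSapop. Its ratio between the CatVII sorts was the lowest, at −0.95 (−1.34 to −0.58), on 68 and 465 counts. The highest was Rpl34 at 0.49 (0.26 to 0.72).

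Between the 2 CatVI plates of the same label, the members differed more than between the CatVII sorts. The median log2 ratio of pl2 to pl1 was 0.82 (peers −0.06), and 24 of 70 members were called higher, against 16.8% of all genes. The highest were Rpl30 at 2.0, Rps27 at 1.99, Rps13 at 1.93 and Rplp2 at 1.87, and the lowest were Rps4x and Rpl4 at 0.04. Without the cell of highest share on each plate, the median was 0.20 and 1 member was called higher. This difference is the only measure of the spread between plates used here, as pl1 and pl2 are the only plates of 1 label named apart. Well names recur within OSalive, so that sort appears to hold more than 1 plate, and it was not split.

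Plates of different labels in CatVI were compared in the same way. The median log2 ratio of pl5 to pl1 and pl2 together was −0.15 (peers −0.19) and none of 74 members was called lower, against 22.2% of all genes. It was 0.05 with median-of-ratios factors and 0.11 with TMM factors. The median log2 ratio of pl5 to pl6 was −0.46 (peers 0.16). Of 66 members, 7 (10.6%) were called lower, about the same share as of all genes (10.9%). These were Rpl3 at −1.61 (−2.01 to −1.21), Rps24 at −1.51, Rpl12 at −1.28, Rplp2 at −1.22, Rps7 at −1.10, Rpl22 at −1.03 and Rpl10a at −1.02. The 7 members had 48 or more counts on pl6.

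On the CatVI plates, cells with more mitochondrial counts had a lower ribosomal protein share. Spearman's rho over cells was −0.89 on pl1 (19 cells), −0.75 on pl2 (9), −0.77 on pl5 (15) and −0.50 on pl6 (14). Over all passing cells it was −0.05 in LOS, −0.24 in MOS, −0.07 in UOS, −0.36 in OSalive and −0.22 in OSapop. The cells of a plate share its library preparation, and these values are descriptions. The 5 cells of pl1 with over 5% mitochondrial counts had a median share of 0.341%, and the other cells of that plate 1.22%. Both are below the lowest UOS cell. The part of RNA quality in these shares was not tested.

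**Figure D5:**
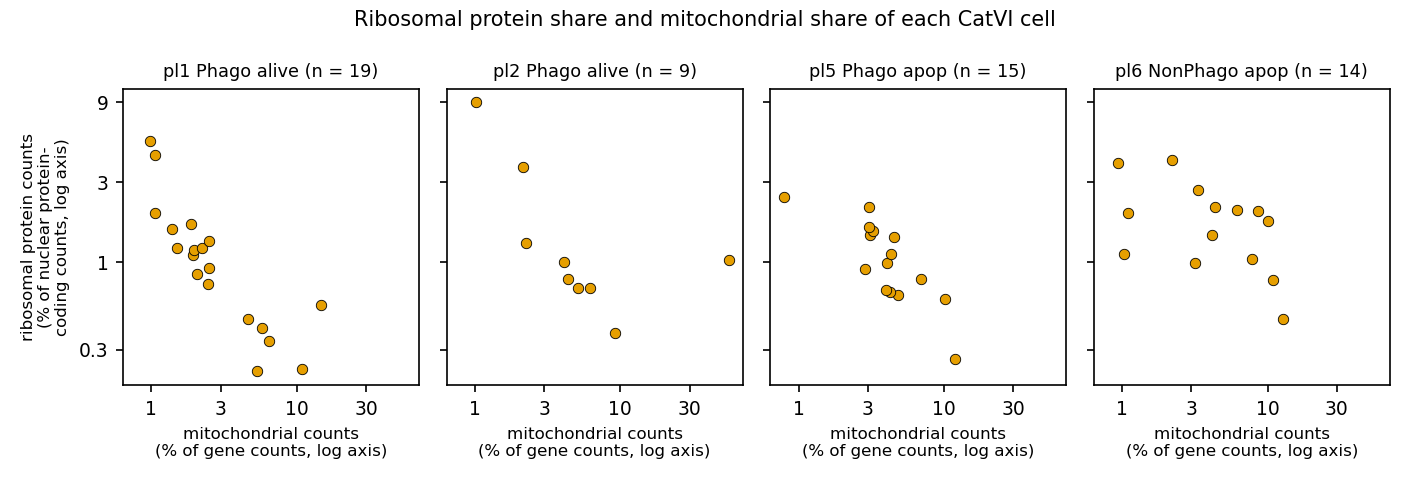
Share of nuclear protein-coding counts from ribosomal protein genes (%, log axis) against the share of gene counts from the mitochondrial genome (%, log axis), for each passing cell of the 4 CatVI plates. On pl1 and pl5 the points fall from upper left to lower right (rho −0.89 and −0.77), and the pl2 cell at 8.96% lies at 1.02% mitochondrial counts.

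The cell of highest share in each group had outer root sheath markers, from 5726 CPM in LOS to 35556 CPM on pl1. The pl2 cell at 8.96% had 9399 CPM of them, no fibroblast, immune, endothelial or melanocyte marker counts, and 1.02% mitochondrial counts. The next cell of pl2, at 3.67%, had melanocyte markers at 7256 CPM and outer root sheath markers at 349.7 CPM. Cells in which the markers of another cell type exceeded those of the outer root sheath numbered 9 in LOS, 6 in UOS, 2 on pl1, 4 on pl2, 1 on pl6, 2 in OSalive and 1 in OSapop. In LOS these 9 cells had a median share of 3.69% and the others 5.33%, whereas on pl2 the 4 cells had a median of 1.02% and the others 0.704%.

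A second measure, counts of the members per count of the spike-in RNA added to each well, does not depend on other genes. The median cell had 0.934 in LOS, 0.463 in MOS and 0.324 in UOS. It had 0.296 on pl1, 0.0795 on pl2, 0.192 on pl5 and 0.283 on pl6. The medians of OSalive and OSapop were 0.0856 and 0.0938. All 6 catagen medians were below the 3 anagen medians. Those of pl1 and pl6 lay close to UOS, much closer than by share, and that of pl2 lay slightly below both CatVII sorts. All nuclear protein-coding counts per spike-in count were 18.96 in LOS, 10.79 in MOS and 7.22 in UOS. They were 28.4 on pl1, 9.95 on pl2, 20.5 on pl5 and 12.7 on pl6, and 9.39 in OSalive and 12.08 in OSapop. Whether equal amounts of spike-in reached every plate was not tested.

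Fewer members were seen in a catagen cell at equal depth. With each cell thinned to 5000 nuclear protein-coding counts, the median cell had counts of 66 members in LOS, 62 in MOS and 65.5 in UOS. It had 30 on pl1, 26 on pl2, 33 on pl5, 43 on pl6, 26 in OSalive and 23.5 in OSapop. Unthinned, the medians ran from 63 to 79 in all groups, so that most members had a count in the median cell of each group. After thinning, 5 cells of LOS and 1 of MOS were too shallow and were left out. The median share of the thinned cells was 0.900% on pl1, 0.940% on pl2, 1.08% on pl5 and 1.68% on pl6, beside 0.920% in OSalive. Rplp0 was found in 100% of the thinned UOS cells (exact interval 96.8 to 100) and in 88.8% of those of OSalive (81.9 to 93.7). Rpl34 was found in 54.5% (44.8 to 63.9) and in 3.2% (0.879 to 7.99). Rpl24 was found in 59.8% (50.1 to 69) and in 48% (39 to 57.1), so that its intervals overlapped.

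The order of the members among themselves was largely kept. Over 81 members ranked by CPM per kilobase of transcript, Spearman's rho was 0.97 between each pair of anagen groups, 0.98 between OSalive and OSapop, and 0.85 between UOS and OSalive. The lowest of all pairs was 0.80, between pl2 and OSapop. All of these ranks share the canonical transcript lengths of the genes. In UOS the highest levels per kilobase were those of Rplp0 (1967), Rps12 (1844), Rps4x (1681), Rps14 (1611) and Rpl13 (1474). Per kilobase of coding sequence, Rpl41 was at rank 1 in UOS and Rplp0 at rank 2. In OSalive Rps14 was at 685, Rps4x at 518, Rplp0 at 500.2, Rps12 at 176.8 and Rpl13 at 116.4. Rps14 led in OSalive, and Rps12 and Rpl13 were no longer among the leading members.

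Other genes known for TOP transcripts shared part of the difference. Of 19 such genes outside the rule, 12 were called lower in OSalive, against 19.1% of all protein-coding genes, with a median of −1.42. The 12 include Gas5 (−1.90), Snhg1 (−2.25) and Snhg8 (−2.87), which encode no protein. The 19 genes ran from Tpt1, a growth-related protein, at −4.0 to Eef2, the elongation factor that moves the ribosome along, at −0.19. Eef1b2 was at −3.87 and Eef1a1 at −0.23, and both belong to the complex that delivers aminoacyl-tRNA. On pl5 these genes were less spread: Eef2 was at −1.20 and Eef1a1 at −1.26.

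Genes for building ribosomes showed smaller ratios than the members in OSalive and on pl1, and came nearer to them on pl5. The medians of the members there were −2.92, −2.15 and −1.91. Of 32 ribosome biogenesis genes, 10 were called lower in OSalive (median −0.64), 9 on pl1 (−0.53) and 20 on pl5 (−1.59), against 19.1%, 32.2% and 35.7% of all genes. In LOS 9 were called higher than in UOS and none lower (median 0.70), against 14.7% and 13.2% of all genes, a comparison in which no ribosomal protein gene was called. Of 15 genes in the growth control of ribosome production, none was called lower in OSalive and 1 was called higher, Myc at 1.04, against 19.1% and 13.8% of all genes, and the median was 0.04. Myc was at 82.4 CPM in UOS, 169.7 in OSalive and 86.6 in OSapop, so that the sorts of CatVII differed. The kinase gene Mtor was at 0.76 and its activator Rheb at −0.57.

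Other large protein complexes were lower in OSalive as well. Of 78 genes for mitochondrial ribosomal proteins, 44 were called lower (median −1.35), against 19.1% of all genes. Of 84 measured genes named as respiratory chain subunits, which include some assembly factors, 68 were (median −2.17), and of 38 proteasome genes 28 were (median −1.73). The ribosomal protein genes were at −2.92 in the same comparison. On pl1 the medians were −1.29, −1.76 and −1.22, and −2.15 for the ribosomal protein genes. The lists were not set against genes of similar length. Other genes of up to 600, 600 to 800 and 800 to 1000 bases had medians of −1.24, −1.53 and −0.96 in OSalive. Of these, 51.2%, 65.7% and 49.3% were called lower. On pl1 their medians were −2.00, −1.83 and −1.41. The part of length in the values of the lists was not tested. The differences between these lists and the ribosomal protein genes were not tested.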

How the data were processed

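The authors aligned trimmed reads of single-cell Smart-seq2 libraries to the mouse genome (mm39) with STAR 2.6, quantified them with Salmon 1.4.0 and compiled them per gene in R 3.6.1 with tximport, and deposited a table of expected counts (estimated counts, not normalized). The annotation release they used is not given in the sources used here. Of the values, 0.471% were not whole, and counts were rounded. Of 1037 samples, 1 had no column, 1 had conflicting stage labels and entered no group, and 79 columns held no counts.

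The GENCODE annotation of GRCm39 held 51654 of the 55335 gene identifiers, and 92 spike-in rows were kept apart. Per group, the counts of cells with at least 2000 detected genes were added up and scaled to their nuclear protein-coding total (CPM). Intervals at 95% are exact (Poisson for CPM, binomial for ratios, Clopper-Pearson for shares) and cover counting error only. With 0 counts in 1 group, 3 counts were used there. Each group is 1 sample, so no test was made. The named genes are the relatives, the stalk proteins and Rpsa, the 5 highest and lowest members by level per kilobase in UOS and by ratio in OSalive and in the summed CatVI plates, the 3 with the widest and narrowest range, and the extremes of each list. Other members were named after their values were seen. The values of 1 member that the rule names, and 1 list, are not reported here. The members and lists were chosen with earlier results of these data known. Python 3.11.15, numpy 2.4.6, pandas 2.3.3, scipy 1.17.1, BLAST+ 2.17.0 and edgeR 4.0.16 (TMM factors, R 4.3.3) were used, and the calculations were tested on simulated data. Alternatives of scaling, of the limits on cells and counts, of weighting cells and of the choice of peers are given in the closing section.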

Additional observations from a re-analysis of the deposited data

How the results depend on the processing

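No paired analysis was possible because the groups share no replicates and no test was made. As pl1 and pl2 are the only plates of 1 label named apart, their spread set the limits for medians and differences. A median was taken as moved when it changed by more than 0.66 on the log2 scale. A difference from the length peers was taken as moved by more than 0.64, and a count of members by more than 1.5 times. Without the cell of highest share in each group, the median of pl2 against pl1 was 0.20 rather than 0.82, so these limits rest in large part on such cells and would be narrower without them. By the limits as set, 1 median and 4 differences from the peers moved. No called median changed its direction. The ratios of the named members, in OSalive and in the summed CatVI plates, were held to their own counting intervals, and most alternatives went outside them while 70 stayed within. The median for LOS ran from −0.26 to 0.08 and that of pl5 to pl1 and pl2 from −0.45 to 0.11. The comparison of OSalive with UOS ran from −3.26 to −2.77, that of OSapop from −3.25 to −2.91, that of pl1 from −2.19 to −1.77, that of pl5 from −2.12 to −1.70 and that of pl6 from −1.83 to −1.30.

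Without the cell of highest share, pl2 had a median of −1.95, a difference from peers of −1.34 and a share of 1.34%. Against genes within 10% of each length, the differences were −0.72 (pl1), −2.08 (OSalive) and −1.89 (OSapop). As a share of all gene counts, the members were at 1.06% in LOS, 0.839% in MOS, 1.06% in UOS, 0.246% on pl1, 0.362% on pl2, 0.253% on pl5, 0.305% on pl6, and 0.154% in OSalive and OSapop, because the denominator is larger. Unthinned, the median member was found in 94.9% of cells in LOS, 96.1% in MOS, 99.1% in UOS, 78.9% on pl1, 77.8% on pl2, 86.7% on pl5, 78.6% on pl6, 88.8% in OSalive and 74.5% in OSapop.

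Counts of called members moved in these comparisons. In MOS 1 became 2 with all gene counts or a minimum of 30 counts, and 0 with median-of-ratios or TMM factors, equal weight of cells, without the deepest cells, or thinned. On pl2 56 became 36 with cells of at most 5% mitochondrial counts. In OSapop against OSalive 0 became 3 with equal weight of cells. For pl2 against pl1, 24 became 15 (all gene counts), 13 (equal weight), 39 (without the deepest cells), 38 (at least 3000 genes), 1 (without the cells of highest share) and 6 (at least 300 counts). For pl5 against pl1 and pl2, 0 became 3 (equal weight), 2 (at most 5% mitochondrial counts) and 1 (without the deepest cells, without cells of other markers, or at least 30 counts). For pl5 against pl6, 7 became 4 (all gene counts, median-of-ratios, TMM, or without the deepest cells), 15 (equal weight) and 2 (at least 300 counts). The cause of these changes was not tested. Thinned cells gave no value for the 3 comparisons among CatVI plates.

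Other scalings moved the median of all genes by −0.34 to 0.27. The share of lower calls among all calls then changed by over 10 percentage points in 10 cases. With all gene counts it was 77.2% on pl6 (66.1% before), 73.9% in OSalive (58.1%) and 50.7% for OSapop against OSalive (61.05%). It was 72.7% for pl2 against pl1 (61.7%) and 25.2% for pl5 against pl6 (37.7%). With TMM factors it was 62.9% in LOS (47.3%), 71.7% for pl2 against pl1, 50.4% for pl5 against pl1 and pl2 (67.6%) and 27.7% for pl5 against pl6. With median-of-ratios factors it was 54.7% for pl5 against pl1 and pl2. The alternatives on mitochondrial counts, markers of other cells, cells of highest share, sequence copies and coding length were chosen after seeing the data. Depth limited the CatVI plates most: pl6 had 321243 counts and 15 members reached 100 counts in every group.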
